A study of Saccharomyces cerevisiae with 15 samples.

Results

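Budding yeast times the making and the opening of its cell wall to the cell cycle, and 8 genes of that programme are described here: SVS1, TOS6, DSE1, DSE2, SCW11, CTS1, EGT2 and ASH1. They are 8 of the 5588 yeast genes measured on the arrays, each with 1 probe set named for it by the platform annotation. They were chosen by their Signal in these same arrays, in particular by the lower level of SVS1 and TOS6 in the yap8 mutant, so that difference is given as a description and with no test. Signal in all 5 groups was known when they were chosen, so the tests given for other comparisons are not independent of the choice either. The arrays held Saccharomyces cerevisiae RNA in 5 groups of 3. These were wild type without an agent at 0 min, and wild type, the yap1 mutant, the yap8 mutant and the y1y8 double mutant, each after 60 min with arsenate (AsV, the pentavalent form of arsenic). The design text of the series gives 2 mM arsenate but describes growth in it until exponential phase, so the sources do not settle whether this dose belongs to the 60 min exposure. That text also speaks of double mutant cells transformed with vectors, some of which hold YAP1 or YAP8, and the labels name no vector for any group. No label gives the strain background, the mating type or whether replicates were separate cultures, and the p-values therefore rest on array-to-array spread, which may be technical.

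A budding cell lays down new wall in late G1, when the factor SBF (Swi4 with Swi6) switches on cyclin and wall genes. SVS1 and TOS6 belong to that timing: SVS1 codes for a cell wall and vacuolar protein known from vanadate sensitivity, and TOS6, whose name stands for target of SBF, codes for a wall protein held by a glycolipid anchor. After mitosis, mother and daughter stay joined by a septum that enzymes must cut. Genes for that step are switched on as cells pass from mitosis into G1, the time at which the factor Swi5 acts. CTS1 codes for the chitinase that opens the septum, DSE2, SCW11 and EGT2 for secreted or wall proteins that resemble or act as glucanases, and DSE1 for a daughter-specific protein. ASH1 codes for a repressor whose mRNA is carried into the bud, so that the daughter does not express HO, the mating-type switching endonuclease.

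Values are intensities (Signal) after quantile normalization, and differences are on the log2 scale with the SE from limma fitted over all 15 arrays, with p adjusted by Benjamini-Hochberg over 5588 genes and a threshold of 0.05. All 8 probe sets were called present on all 15 arrays. Normalization puts the arrays on a common level, so each change is relative to the other genes. The precision is limited by the 3 arrays in each group. The genotype labels were checked on the deleted genes. YAP1 gave a mean log2 Signal of 11.67 in treated wild type, 11.70 in yap8, 9.21 in yap1 and 9.20 in y1y8. It was still called present on every array of yap1 (502 to 660) and of y1y8 (550 to 643), so its check is a drop and not an absence. ARR1, the gene of Yap8, was called absent on the 3 arrays of yap8 and on the 3 of y1y8 only.

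The first question was what arsenate did to these genes in wild-type cells, where time and agent changed together. The late G1 genes had far less RNA after 60 min. SVS1 read 3554, 3483 and 3579 on the untreated arrays and 627, 544 and 475 on the treated ones. All 3 treated arrays lay far below the untreated ones, and the 3 untreated arrays were close together. The difference was -2.70 ± 0.13, a 6.49-fold fall (n = 3 arrays per group, limma adjusted p = 3.25e-10). The treated wild-type arrays are also those whose level against yap8 chose SVS1, so this test is not independent of the choice. TOS6 read 2834, 3191 and 3389 untreated and 107, 130 and 106 treated. This is 27.5 times less (-4.78 on the log2 scale), and only 3 of the 5588 genes had a lower difference. TOS6 was already known as one of the largest falls of this comparison, so its rank restates that and no test or interval is given. In the authors' deposited table the signed linear folds were -6.97 for SVS1 and -18.95 for TOS6, with bounds of -14.22 and -28.25 for TOS6. In a bulk culture, fewer cells in a phase and less RNA per cell cannot be told apart.

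The genes of septum cutting, SCW11, DSE2, EGT2 and CTS1, all fell, but much less. SCW11 read 1739, 1813 and 1585 untreated and 911, 776 and 975 treated. It had the largest fall of this set, -0.95 ± 0.12 or 1.94-fold (limma adjusted p = 4.12e-06). DSE2 read 1658, 2088 and 2213 untreated and 1142, 1037 and 1424 treated, a difference of -0.73 ± 0.15 (limma adjusted p = 0.000547). EGT2 read 1632, 1762 and 1668 untreated and 1062, 1108 and 1083 treated. For both genes the lowest untreated array lay above the highest treated one, and EGT2 fell by 0.64 on the log2 scale (limma adjusted p = 9.49e-06). In the authors' deposited table the signed folds were -1.77 for SCW11, -1.77 for DSE2 and -1.31 for EGT2.

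CTS1, the chitinase gene, read 2991, 3493 and 3179 untreated and 2460, 2460 and 2527 treated. The groups did not overlap, and the fall was small at -0.37 ± 0.08 (limma adjusted p = 0.000987). Its size depended on the scaling, since centring each array on its median gave -0.65. DSE1 differed least, with 853, 1164 and 1109 untreated and 974, 1016 and 1096 treated. The treated arrays lay inside the untreated range, and the 95% interval of the difference ran from -0.25 to 0.23 (limma adjusted p = 0.954). ASH1 was the one gene of the 8 that was higher, at 1520, 1726 and 1716 untreated and 1864, 1853 and 1933 treated.

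The ASH1 rise of 0.19 ± 0.08 (limma adjusted p = 0.0465) was near the threshold. It was lost in 11 of 22 alternative settings, with limma adjusted p from 0.0289 to 0.187 over all of them. Median centring gave adjusted p = 0.179 and a block for the replicate number adjusted p = 0.0502. Leaving out any array of treated wild type or of yap8, or untreated replicate 1, yap1 replicate 3 or y1y8 replicate 2, gave adjusted p between 0.0548 and 0.187. CTS1, DSE1 and ASH1 were not listed for this comparison in the authors' deposited table, whose rule for listing a gene is not the limma threshold.

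Of the 7 genes other than TOS6, 5 fell, 1 rose and DSE1 did not pass. Among all genes tested, 39.2% fell and 41.9% rose, 81.2% in all, so that a gene called in this comparison is common. The median difference of the 8 genes was -0.68, against 0.03 for all genes. SVS1 had 102 genes with a lower difference. SCW11 had 1059, EGT2 1453, DSE2 1314 and CTS1 1920, well inside the bulk of the genes.

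**Figure D1:**
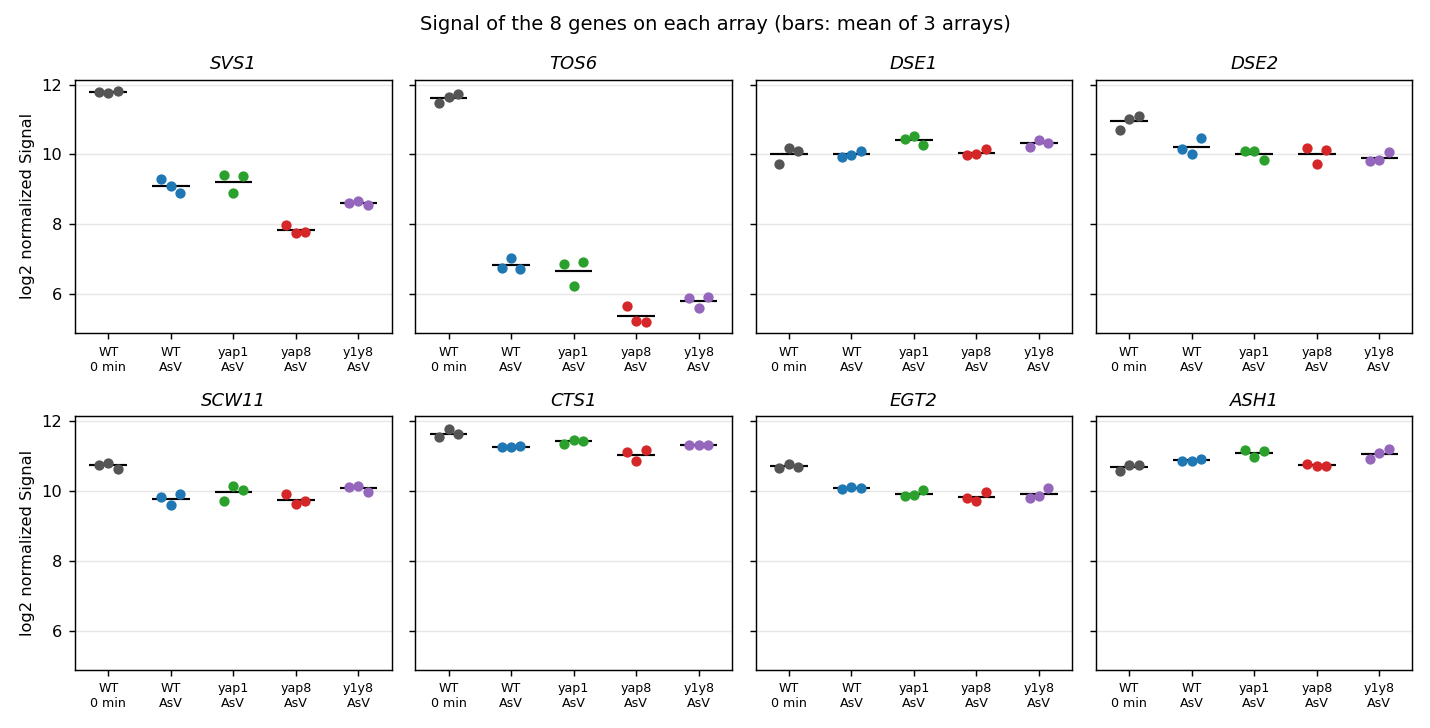
Normalized Signal (log2, vertical axis) of the 8 genes on each of the 15 arrays, with points for arrays, bars for the mean of 3 and colours for the 5 groups. SVS1 and TOS6 drop from means of 11.79 and 11.61 in untreated cells to 9.09 and 6.83 in treated wild type, while the other 6 genes stay between means of 9.76 and 11.65 in all groups.

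The yap8 mutant, which lacks the regulator of arsenite export, held the least SVS1 and TOS6 of all groups. This is the observation that chose the genes, so it is described only. SVS1 read 253, 217 and 220 in yap8 against 627, 544 and 475 in treated wild type, a 2.37-fold lower level. TOS6 read 50.2, 37.4 and 37.3 against 107, 130 and 106, a 2.76-fold lower level. No array of yap8 reached any array of treated wild type for either gene. For TOS6, adding 16 to each value before log2 gave a smaller difference of -1.18 in place of -1.47. SVS1 alone of the 8 was listed for this comparison in the authors' deposited table, at a signed fold of -2.22 with bounds of -1.94 and -2.56.

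The other 6 genes differed little between yap8 and treated wild type, and again without a test. CTS1 was at 2206, 1844 and 2336 in yap8, below the 2460 to 2527 of treated wild type. EGT2 was at 899, 850 and 1006, below 1062 to 1108, and ASH1 at 1756, 1684 and 1690, below 1853 to 1933. The differences of these 3 were -0.23, -0.24 and -0.14. DSE1, DSE2 and SCW11 overlapped between the groups, at 0.05, -0.19 and -0.03. CTS1, EGT2 and ASH1 were thus the 3 of these 6 genes that were lower without overlap. SVS1 and TOS6 were lower without overlap too, but that level chose the genes, so they are not counted. Over all genes, 7.77% were lower in yap8 without overlap and 0.125% passed the limma threshold in either direction. No limma call is given for any of the 8 genes in this comparison. Signal of all 8 was known when they were chosen, so the count beside that share is a description only.

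Loss of Yap8 was also made in cells that lack Yap1. The arrays of this comparison are not those of the yap8 comparison above, but their values too were known when the genes were chosen. SVS1 read 389, 408 and 378 in y1y8 against 674, 474 and 668 in yap1, and TOS6 read 59.5, 48.8 and 61.2 against 117, 76.3 and 121. Both genes were lower in y1y8 on every array, with yap1 replicate 2 closest to the double mutant. The differences were -0.61 ± 0.13 for SVS1 (95% interval -0.89 to -0.33, limma adjusted p = 0.18) and -0.87 ± 0.17 for TOS6 (95% interval -1.24 to -0.49, limma adjusted p = 0.164). Neither passed over all genes. Only 8 genes had a lower difference than TOS6 and 16 a lower one than SVS1.

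Each would pass in only 1 of 22 alternatives, the one that leaves out yap1 replicate 2, the yap1 array closest to the double mutant. There SVS1 was at -0.78 (limma adjusted p = 0.0082) and TOS6 at -1.08 (limma adjusted p = 0.0084). Over 22 alternatives the limma adjusted p ran from 0.0082 to 0.731 for SVS1 and from 0.0084 to 0.696 for TOS6, and the differences from -0.78 to -0.52 and from -1.08 to -0.72. None of the 8 genes passed limma's adjusted threshold in this comparison, 2 did at an unadjusted p under 0.05, and over all genes 0.0895% passed and 6.80% did so unadjusted. SVS1, TOS6 and CTS1 were lower without overlap, as were 5.46% of all genes. The other 6 genes ranged from -0.11 to 0.12, and each of their 95% intervals held 0. The narrowest of these intervals were those of CTS1 (-0.28 to 0.08), EGT2 (-0.20 to 0.17) and ASH1 (-0.21 to 0.14). Whether the loss of Yap8 weighed differently with and without Yap1 was not tested, because one side of that difference chose the genes.

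**Figure D2:**
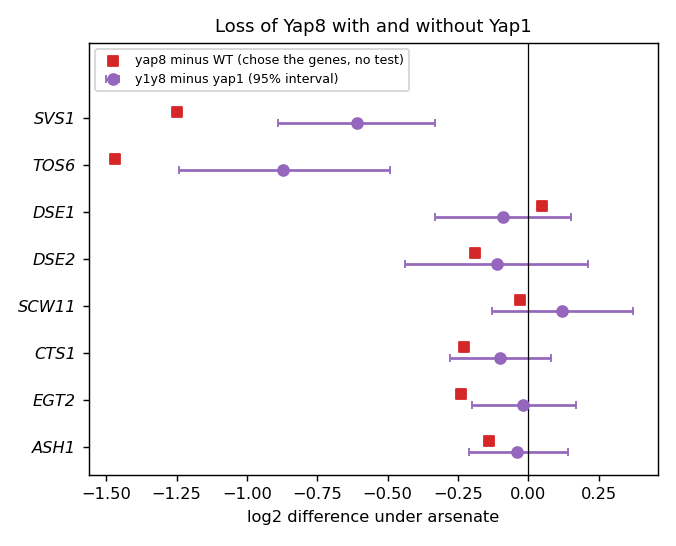
Log2 difference under arsenate (horizontal axis) for each of the 8 genes when Yap8 is lost, with red squares for yap8 minus wild type, which chose the genes and has no test, and purple points with 95% intervals for y1y8 minus yap1. SVS1 and TOS6 lie below 0 in both, at -1.25 and -1.47 with Yap1 present and at -0.61 and -0.87 without it.

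Loss of Yap1, the oxidative stress regulator, left SVS1 and TOS6 near their level in treated wild type. SVS1 read 674, 474 and 668 in yap1 and TOS6 117, 76.3 and 121. Both overlapped treated wild type, with 95% intervals of the difference from -0.15 to 0.41 and from -0.53 to 0.22. The treated wild-type arrays are those whose level against yap8 chose both genes, so these intervals are not independent of the choice. DSE1 was the one gene of the 8 that changed, where 19.0% of all genes changed and 9.61% rose. It read 1382, 1471 and 1243 in yap1 against 974, 1016 and 1096 in treated wild type, and rose by 0.41 ± 0.11 (limma adjusted p = 0.0206). That call was lost without treated wild-type replicate 1 or 2 or yap1 replicate 1 or 2, with limma adjusted p between 0.0597 and 0.0774, and over 22 alternatives it ran from 0.00456 to 0.0774.

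ASH1 read 2320, 2012 and 2280 in yap1, above 1853 to 1933 in treated wild type, with a difference of 0.22 ± 0.08 (limma adjusted p = 0.0755). It would pass with median centring (adjusted p = 0.0403) or without yap1 replicate 2 (adjusted p = 0.0392), within a range of 0.0392 to 0.213 over the alternatives. CTS1 and EGT2 differed by 0.14 and -0.15 and did not pass. Their arrays did not overlap between the groups, but the 95% intervals, -0.04 to 0.32 and -0.33 to 0.03, held 0. DSE2 and SCW11 overlapped, at -0.20 and 0.18. None of the 8 genes was listed for this comparison in the authors' deposited table.

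With both regulators lost, SVS1 and TOS6 lay below treated wild type and the other 6 did not pass. SVS1 was 1.39-fold lower, at -0.48 on the log2 scale, and TOS6 2.03-fold lower, at -1.02, and all 3 double mutant arrays lay below all 3 wild-type arrays for both. These values are a description with no test, because the treated wild-type arrays are the ones whose level against yap8 chose the genes. None of the other 6 genes passed limma's adjusted threshold and 3 did at an unadjusted p under 0.05, where 20.0% of all genes passed in either direction, 9.88% were called lower and 33.4% had an unadjusted p under 0.05. DSE1 read 1194, 1373 and 1276 in y1y8, above treated wild type, at 0.32 ± 0.11 (limma adjusted p = 0.0622, and from 0.0188 to 0.186 over the alternatives). SCW11 read 1102, 1148 and 1020, also above treated wild type, at 0.30 ± 0.12 (limma adjusted p = 0.0866). CTS1 did not overlap treated wild type either, at a difference of only 0.04 (95% interval -0.14 to 0.22), so lack of overlap can go with a small difference.

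**Figure D3:**
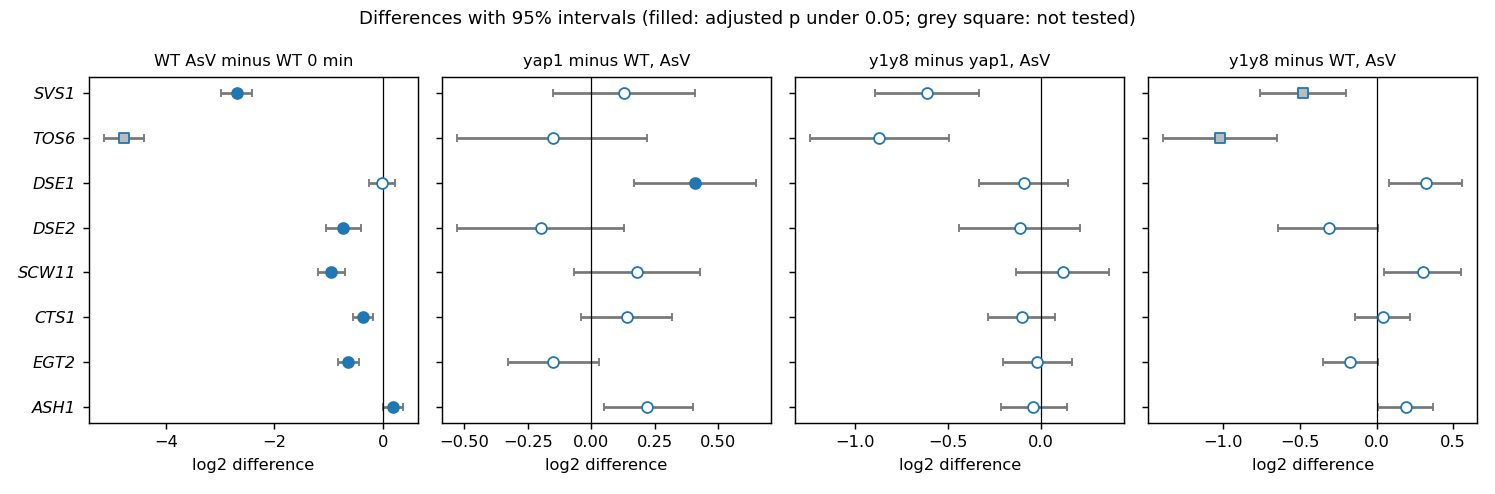
Log2 differences of the 8 genes (horizontal axis, a scale of its own in each panel) in 4 comparisons, with 95% intervals. Filled points passed the adjusted limma threshold, and the 3 grey squares (TOS6 in wild type, SVS1 and TOS6 in y1y8 minus wild type) were not tested. The intervals drawn at these squares are not read as a test. In the panel for wild type the difference of TOS6 is -4.78 and that of ASH1 0.19.

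Set in order, the 8 genes gave different rankings of the 5 groups. SVS1 was highest in untreated wild type, then in yap1 and treated wild type, which overlapped, then in y1y8 and lowest in yap8, with no overlap between those last steps. TOS6 had the same groups at the top and bottom, but treated wild type and yap1 overlapped, and so did y1y8 and yap8. Against untreated cells the TOS6 level was 30.5 times lower in yap1, 55.7 times lower in y1y8 and 75.9 times lower in yap8. For SVS1 these folds were 5.92, 9.04 and 15.4. DSE2, SCW11 and EGT2 were highest in untreated cells, apart from every treated group. Among the treated groups DSE2 overlapped at every neighbouring step. CTS1 was also highest in untreated cells, then in yap1, y1y8 and treated wild type, and lowest in yap8, each step without overlap but of 0.04 to 0.23. DSE1 and ASH1 were highest in yap1 and y1y8, which overlapped.

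The factor genes upstream were read on the same arrays. SWI4, which codes for the DNA-binding subunit of SBF, read 209 to 218 in untreated cells and 39.6 to 58.7 in treated wild type, and fell by 2.19 on the log2 scale (limma adjusted p = 6.43e-08). It was between 36.8 and 52.6 on the arrays of yap1 and yap8 and between 53.1 and 76.5 in y1y8. Between yap8 and treated wild type SWI4 differed by -0.03, with overlap, and between y1y8 and yap1 by 0.49 ± 0.18, which did not pass (limma adjusted p = 0.577). SWI5, whose product acts at the passage from mitosis into G1, read 946 to 1007 in untreated cells and 753 to 908 in treated wild type. Its difference of -0.29 ± 0.13 did not pass (limma adjusted p = 0.0512). Their part in the changes of the 8 genes was not tested.

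**Figure D4:**
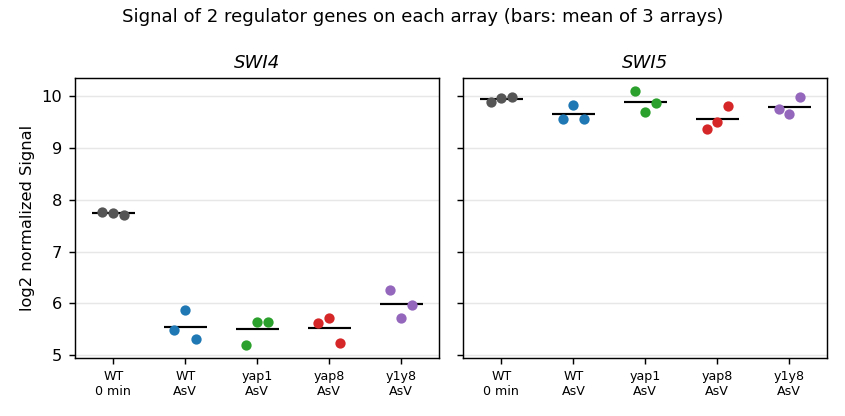
Normalized Signal (log2, vertical axis) of SWI4 and SWI5 on each of the 15 arrays, with bars for the mean of 3. SWI4 drops from a mean of 7.74 in untreated cells to 5.55 in treated wild type, and SWI5 from 9.94 to 9.65.

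Other genes of the programme were counted in 10 lists holding 115 measured genes, 99 of which passed under arsenate, or 86.1% against 81.2% of all genes. Of 18 late G1 wall and SBF target genes, 16 fell and 2, CRH1 and CWP1, rose, with a median of -1.68 against 0.03 for all genes. The G1 cyclin genes led it, with PCL1 at -3.67, CLN1 at -3.42 and CLN2 at -3.36. Of 12 genes for the factors SBF and MBF and for G2/M control, 11 fell, with a median of -0.93. The largest falls were those of NRM1, a corepressor of MBF (-3.57), YOX1, a homeodomain repressor (-2.90), and FKH1, a forkhead factor (-2.48).

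In the list nearest in function to the cutting enzymes, 10 separation and daughter genes, 6 fell and CHS1 and PST1 rose, with a median of -0.86. The largest falls were at PRY2, which codes for a secreted sterol-binding protein (-2.02), SUN4, a glucanase-like septation gene (-1.99), and the glucanase gene DSE4 (-1.56). Of 10 early G1 genes, 6 fell and SIC1 and PIR1 rose, with a median of -1.12. HO, the target of the ASH1 repressor, went from 749 to 904 in untreated cells to 29.0 to 32.3 in treated wild type, a difference of -4.73 ± 0.11 (limma adjusted p = 3.96e-13). It stands beside the ASH1 change of 0.19. FAR1, which codes for a cyclin kinase inhibitor, was at -4.47, and TEC1, a factor of filamentous growth, at -2.90.

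The upstream signalling genes were mixed. Of 15 regulators of separation, 8 rose and 4 fell with a median of 0.22, among them the kinase gene DBF20 at 1.27, the RAM network gene TAO3 at -1.48 and the phosphatase gene CDC14 at -0.78. Of 8 genes for ASH1 RNA transport and repression, 3 rose and 5 fell. PUF6 and HEK2 (also called KHD1), which code for proteins that hold ASH1 mRNA untranslated, were at -2.45 and -1.53, and the myosin gene MYO4 at -0.92. Septum building and cytokinesis genes had 6 of 15 up and 6 down, with the chitin synthase gene CHS2 at -0.77, SKT5, the activator gene of another chitin synthase, at 0.71 and the septin gene CDC10 at 0.95. Of 8 wall glucanase and chitinase paralogues, 4 fell and 2 rose, with SIM1 at -2.08, NCA3 at -0.89 and ACF2 at 0.90.

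Cell cycle phase markers moved as well. All 11 measured S phase markers fell, with a median of -1.08, among them the ribonucleotide reductase gene RNR1 at -4.07, the histone gene HTB2 at -2.68 and the sliding clamp gene POL30 at -2.01. Of 10 G2 and M phase markers 5 fell and 2 rose, with a median of -0.20 and with CLB1 at -2.91, CDC5 at -1.39 and CLB2 at -1.20. Their part in the changes of the 8 genes was not tested. Each list count stands beside 39.2% of all genes lower and 41.9% higher, and the lists were chosen with earlier results known.

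**Figure D5:**
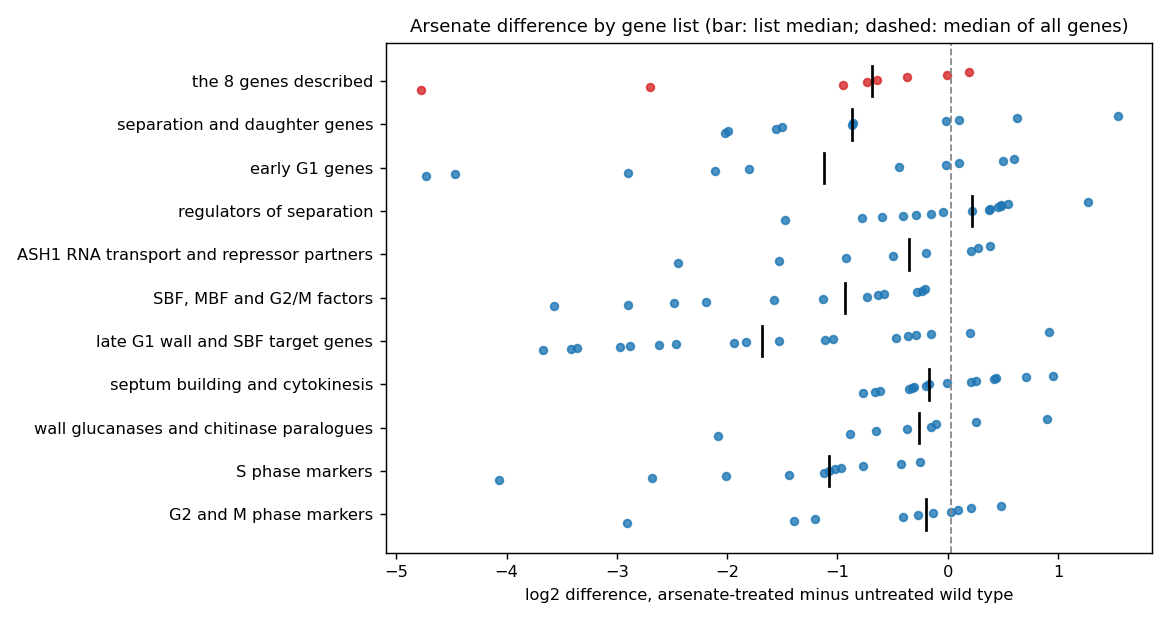
Log2 difference between arsenate-treated and untreated wild type (horizontal axis) for the 8 genes (red) and the measured genes of each list (blue), with a bar at the median of each row and a dashed line at the median of all genes, 0.03. The late G1 row has the lowest median, -1.68, and the regulators of separation the highest, 0.22.

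Among the mutants fewer list genes passed. Under loss of Yap1 18 of the 115 genes passed, 15.7% against 19.0% of all genes, and under loss of both 24, 20.9% against 20.0%. In y1y8 against yap1 none of the 115 passed limma's adjusted threshold and 8 did at an unadjusted p under 0.05. Over all genes 0.0895% passed and 6.80% did so unadjusted. The cyclin genes were read beside SVS1 and TOS6. In yap8 PCL1 read 40.1 to 48.2 and CLN1 55.9 to 71.9, against 81.3 to 93.8 and 102 to 135 in treated wild type. In y1y8 against yap1 they differed by -0.51 ± 0.21 and -0.41 ± 0.16, with overlap (limma adjusted p = 0.648 and 0.63). Their list of 18 late G1 genes had a median of 0.03 there, against 0.00 for all genes, with 7 below 0 and PCL1 the lowest. In yap8 against treated wild type that list had a median of -0.17, against 0.01 for all genes, with 16 below 0 and PCL1 again the lowest. The list values in yap8 are a description with no test. CLN2 was at -0.52 in yap8 and at -0.12 in y1y8 against yap1. HO and FAR1, at -4.73 and -4.47 under arsenate beside -4.78 for TOS6, differed by 0.17 and 0.04 in yap8.

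The genes whose 5 group means, each centred on its own average, lay closest to those of each of the 8 were then searched among 5089 genes with a standard symbol. Likeness is the root mean square difference over the 5 groups, on the log2 scale. SVS1 was nearest to the hexose transporter gene HXT2 (0.284) and to YOX1 (0.285), and TOS6 to the CTP synthase gene URA7 (0.362) and the adenine deaminase gene AAH1 (0.382). These 4 genes differed by -1.02 to -0.56 between yap8 and treated wild type, and by -0.06 to 0.04 between y1y8 and yap1. The flatter genes had closer matches. SCW11 was nearest to the ergosterol gene ERG2 (0.013) and the translation factor gene FUN12 (0.037), CTS1 to the threonine deaminase gene ILV1 (0.020) and to EIS1 (0.022), and EGT2 to PAU14 and ECM7 (0.020 each). ASH1 was nearest to the phosphatidate phosphatase gene PAH1 (0.030) and to PAL1 (0.031). DSE1 was nearest to SRP14, a signal recognition particle gene, and the endosomal sorting gene VPS28 (0.031 each), and DSE2 to the lipid kinase gene STT4 (0.028) and PSP2 (0.032).

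Position was compared by gene order in a gene table of assembly R64. SVS1 on chromosome XVI lies between MLH3 and YPL162C, which were higher under arsenate by 0.65 and 0.73, opposite to SVS1. In yap8 these neighbours differed by 0.06 and -0.13. TOS6 on chromosome XIV lies between the ribosomal protein gene RPL18B and TRF5, which were at -1.57 and -1.87 and differed in yap8 by -0.08 and 0.01. EGT2 is on the same chromosome as TOS6, and the neighbours on its sides, MDJ2 and PFA3, moved by 2.05 and -0.29. TOS6 codes for a protein of 102 residues by its coding length and SVS1 for one of 260.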

How the data were processed

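The authors deposited one linear intensity (Signal) per probe set and array with a detection call, for 10928 probe sets on 15 arrays. RNA was isolated with hot phenol, per the labels' protocols. Partek is named without a version, per the submitters' processing notes, and how probes were summarized into Signal is not stated by these sources. Array medians ran from 46.2 to 101.6, so the authors' intensities were not on one scale. The series matrix held the same values. The authors' deposited table gives signed fold changes, used as a score whose minus sign marks a lower level in the treated or mutant group. It does not list every gene, and its rule for listing differs from the limma threshold, so the 2 are not directly comparable. In it, 36 columns of values and calls per array in it were not used.

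Of the probe sets 5638 matched a yeast gene, giving 5588 genes (the brightest probe set for 48 of them). Values were quantile normalized, set to at least 1 and put on the log2 scale, and tested with limma 3.58.1 in R 4.3.3 on a group-means model (two-sided, threshold 0.05), which was tested on simulated data. Replicate numbers did not pair the arrays. Genes were named by rule: the 8 genes, the 3 largest changes of each list, the factors SWI4 and SWI5, and 2 nearest patterns per gene. CRH1, CWP1, CHS1, PST1, SIC1 and PIR1 and the neighbours were named after their values were seen. Values of 1 further gene covered by the rule are not reported here. Members and lists were chosen with earlier results of these data known.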

Additional observations from a re-analysis of the deposited data

How the results depend on the processing

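Results were recomputed under 22 alternatives. No difference tested for the 8 genes reversed past the threshold. In wild type 6 of 7 genes passed under arsenate, and 5 to 6 without any 1 array. Under loss of Yap1, 1 gene passed, 2 with median centring, and 0 to 1 without 1 array. For loss of Yap8 in cells lacking Yap1, 0 genes passed, and 0 to 2 without 1 array, while all genes called went from 5 to between 4 and 9. Under loss of both, 0 of the 6 genes other than SVS1 and TOS6 passed. Of these, DSE1 would pass in 5 of the 22 alternatives, and EGT2 and ASH1 in 1 each. SVS1 and TOS6 are a description with no test there and are not counted. List genes called numbered 18 under loss of Yap1, and 10 to 23 without 1 array; under loss of both they numbered 24, against 14 with median centring and 13 to 27 without 1 array. The described TOS6 difference in yap8 moved from -1.47 to -1.18 with 16 added before log2. The cause of these shifts was not tested, and a fit without 1 array also rests on fewer arrays.

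Same-numbered arrays of different groups deviated with correlations of -0.33 to 0.41 (median 0.015), so the numbers were not taken as pairs. With the replicate block, genes called over all tested were 4521 under arsenate, 993 for loss of Yap1, 4 for loss of Yap8 in cells lacking Yap1 and 1033 for loss of both, against 4536, 1059, 5 and 1115 without it. With the block, 5 of the 8 genes (TOS6 not counted) passed under arsenate, where ASH1 dropped out. For loss of Yap1 1 passed, and for loss of Yap8 in cells lacking Yap1 0 passed. Under loss of both, the fit with the block put 3 of the 8 genes under the threshold. SVS1 and TOS6 are among these 3, but they are a description with no test there and are not counted. Of the other 6 genes only DSE1 passed (limma adjusted p = 0.0491, within 0.0188 to 0.186 over all alternatives). TOS6 in yap8, with Signal down to 37.3, is the dimmest of the 8 genes, and its fold depends on how low values are handled.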
